A study of Mus musculus with 2 samples.

Results

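Macrophage, dendritic cell and complement genes were examined in the proximal small intestine of mice lacking CD36. The set was given as 32 gene symbols and holds growth factor receptors, lineage transcription factors, surface and Fc receptors of mononuclear phagocytes, the chains of C1q, and factors and receptors of the complement system. A gene counted as measured where a probe set was annotated to its symbol and to no other, which held for 29 of the 32 symbols, among 18194 genes named on the array. Ly6c2 shared its probe set with another gene and was not used, and C3 and Cfd had no probe set under their symbol in the annotation used here. Where a gene had several probe sets, the one with the highest mean over both arrays stood for it.

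RNA of the upper intestine was measured on 2 Affymetrix arrays, 1 per genotype. The CD36KO array held pooled RNA of 3 germline CD36-null mice on the C57BL/6 background, and the WT array held pooled RNA of 3 wild-type C57BL/6 mice. Both groups ate chow at will. The deletion is in the germline, so the phagocytes of the gut lacked CD36 along with the epithelium, the vessels and every other tissue. Each genotype is 1 measurement of a pool (n = 1), no test was possible, and no difference below could be set against variation between animals or arrays.

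Macrophages of the intestinal wall are renewed largely from blood monocytes, depend on signalling through the receptor CSF1R, and take up dying cells and bacteria without strong inflammation. Dendritic cells, which depend on the receptor FLT3, carry antigen to lymph nodes. Complement is a cascade of plasma and tissue proteins that coats targets and calls phagocytes: C1q starts its classical branch, factor B drives its alternative branch, and in tissue C1q is made mainly by macrophages and dendritic cells. CD36 is itself a scavenger receptor carried by macrophages, besides its role in fatty acid uptake by enterocytes.

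Values are the deposited log2 values, and a difference is always CD36KO minus WT on that scale. A level applies to 1 probe set and cannot be set against that of another gene. A gene was called expressed where the higher of its 2 values reached 4.51, the midpoint of such higher values across the whole array, and 1.5-fold (0.58 on the log2 scale) was the size used for counts. Cd36 read 6.02 in CD36KO and 7.68 in WT, and its other probe sets differed by -1.83 and -1.22. Where these probe sets lie in relation to the deleted sequence is unknown here, and readings from outside that sequence would be no check of the labels. All 15 measured enterocyte markers were above the filter, with a median difference of -0.04.

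Most of the set was slightly higher in the CD36KO pool. Of the 29 measured genes, 25 had a difference above 0, beside 47.8% of all 18194 genes, and the median difference was 0.24, beside -0.01 for all genes. Above the expression filter were 26 genes, 2 of which (Zbtb46 and Cd209a) passed it through the CD36KO array alone. Of these 26, 5 were at least 1.5-fold higher in CD36KO, beside 5.31% of the genes above the filter, and 0 were at least 1.5-fold lower, beside 3.31%. The 5 genes were Lyz2, Lgmn, C1qc, C1qa and C3ar1. At 2-fold the counts were 2 higher (Lyz2 and Lgmn), beside 1.61%, and 0 lower, beside 0.626%. A difference above 0 was read for 22 of the 26, beside 48.8%. The other 21 lay within 1.5-fold, and 17 of the 26 differed by less than 0.3 in size. In bulk tissue, more cells of a type and more RNA per cell cannot be told apart.

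**Figure D1:**
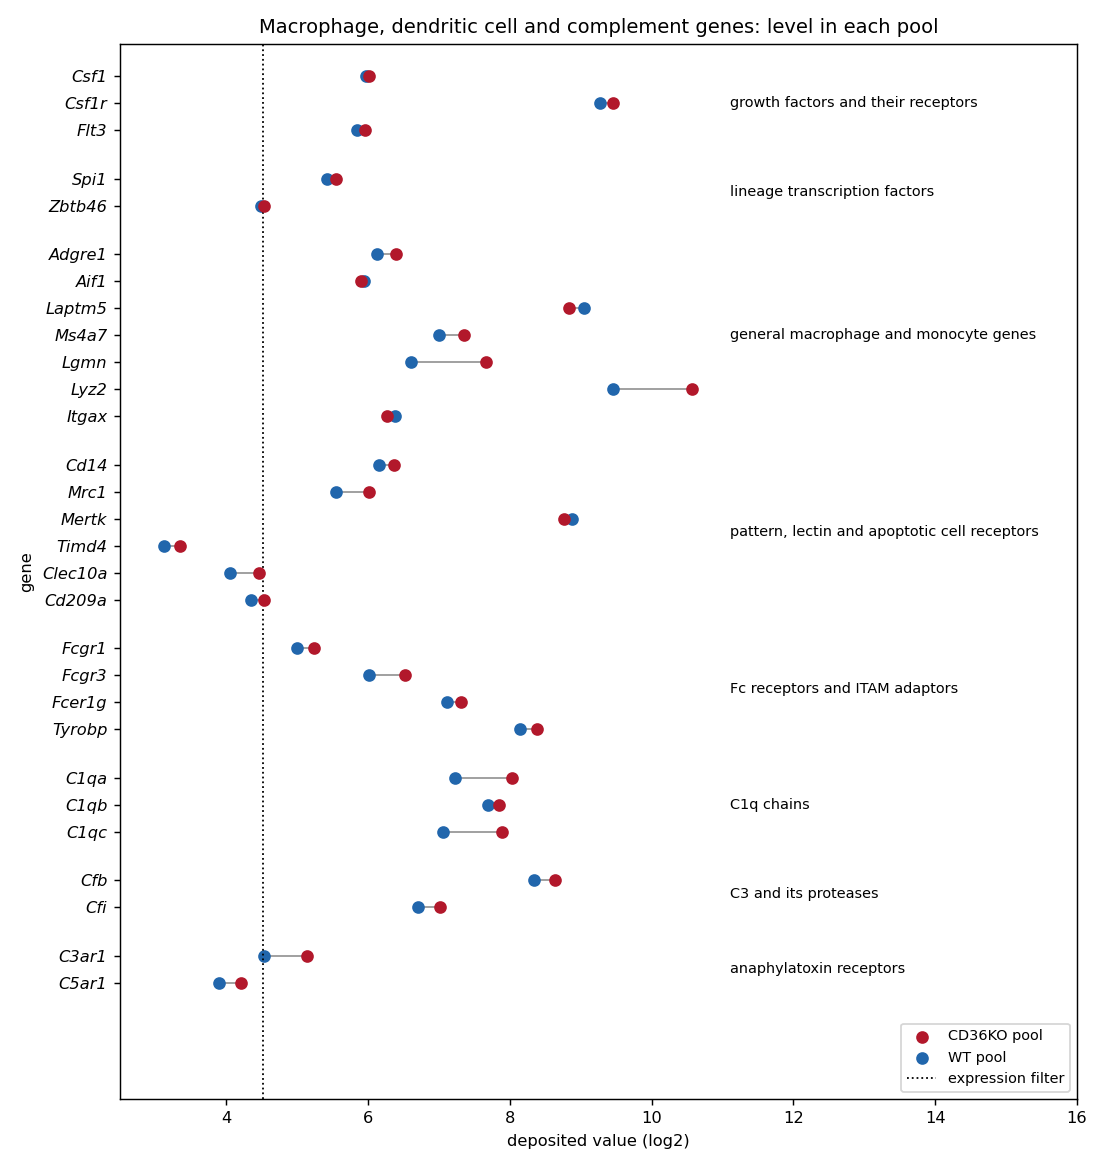
Deposited log2 value (x axis) of the probe set used for each of the 29 measured genes (y axis, grouped by role) in the CD36KO pool (red) and the WT pool (blue), with the expression filter of 4.51 as a dotted line. Lyz2 and Lgmn have the widest gaps, at 1.11 and 1.05, while Timd4, Clec10a and C5ar1 lie below the filter in both pools.

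C1q genes C1qa and C1qc were among the 5 genes past 1.5-fold. C1qa read 8.02 in CD36KO and 7.22 in WT, a 1.74-fold higher value. C1qc read 7.89 in CD36KO and 7.06 in WT, 1.77-fold higher. Each of these genes had 1 probe set, and the genes encode chains that assemble into the same hexameric recognition protein. The genes C1qb, C1qc and C1qa follow each other on chromosome 4 with 0 other protein-coding genes between them in the RefSeq table of assembly GRCm38.p6.

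C1qb, the gene of the third chain, gave readings that disagreed between its 3 probe sets. The probe set chosen for C1qb, which has the suffix x, read 7.85 in CD36KO and 7.70 in WT, a difference of 0.15. The second, without that suffix, read 8.36 in CD36KO and 7.15 in WT, which is 2.30-fold higher and the largest difference at any probe set of these genes. The third, again with the suffix x, read 7.14 in CD36KO and 7.06 in WT. The mean levels of the first and the second differed by only 0.02, so the choice between a difference of 0.15 and one of 1.20 for C1qb rested on a near tie. That suffix marks probe sets some of whose probes can match other transcripts. The cause of the disagreement was not tested.

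The start regions of C1qc and C1qb are printed here because these neighbouring genes encode chains of 1 protein, beside that of Lyz2, the gene with the largest difference among the probe sets used. Each is the window from 250 bases before to 50 bases after the annotated start, from RefSeq with build GRCm38.p6, on the minus strand, and capitals mark the motif GAGGAA or its reverse complement TTCCTC, the core bound by the myeloid transcription factor PU.1. The windows are chr4:136892865-136893164 for C1qc, chr4:136886151-136886450 for C1qb and chr10:117282223-117282522 for Lyz2.
C1qc: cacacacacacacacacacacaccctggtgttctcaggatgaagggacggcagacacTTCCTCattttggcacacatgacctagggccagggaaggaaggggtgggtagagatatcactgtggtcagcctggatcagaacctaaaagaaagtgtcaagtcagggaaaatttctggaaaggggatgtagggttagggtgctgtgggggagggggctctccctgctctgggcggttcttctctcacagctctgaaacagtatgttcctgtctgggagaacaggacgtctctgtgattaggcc
C1qb: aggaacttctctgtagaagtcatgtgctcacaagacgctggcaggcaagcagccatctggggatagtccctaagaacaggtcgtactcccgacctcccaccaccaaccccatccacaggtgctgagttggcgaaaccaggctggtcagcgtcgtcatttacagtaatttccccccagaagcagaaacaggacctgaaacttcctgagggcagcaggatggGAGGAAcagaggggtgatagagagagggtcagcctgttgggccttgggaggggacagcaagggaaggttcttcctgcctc
Lyz2: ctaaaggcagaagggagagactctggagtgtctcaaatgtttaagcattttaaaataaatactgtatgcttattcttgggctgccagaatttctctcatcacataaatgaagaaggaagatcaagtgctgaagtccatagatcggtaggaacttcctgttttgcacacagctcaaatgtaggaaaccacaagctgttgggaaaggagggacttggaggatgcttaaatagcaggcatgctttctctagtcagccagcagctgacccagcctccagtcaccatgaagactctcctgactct
The C1qc and the C1qb window held 1 match each, that of C1qc on the opposite strand, and the Lyz2 window held 0. Over both strands, 11 of the 27 windows of 23 genes in the set held the motif (40.7%), beside 28.3% of all 32851 windows in the table. Some genes had several windows, and 9 of the 23 genes, with the unmeasured Ly6c2 among them, held a match. C1qa, Csf1r and Spi1 were among the genes of the set with no window counted. Any windows of the set on 1 chromosome were left out of its count but not of the count of all windows, so the 2 shares are not fully alike. A match is a description of these letters and not a measured binding site. Spi1, which encodes PU.1, read 5.54 in CD36KO and 5.41 in WT.

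Lyz2, the lysozyme of macrophages and neutrophils, read 10.57 in CD36KO and 9.46 in WT, a 2.16-fold higher value. Its neighbour on chromosome 10 is Lyz1, the closely related lysozyme of Paneth cells, with 0 protein-coding genes between them. Lyz1 read 13.66 in CD36KO and 13.22 in WT, and its other probe sets differed by 0.42 and 1.07. All 8 measured Paneth cell genes were above the filter and higher in CD36KO, beside 48.8% of all genes above the filter. Of the 8, 7 were at least 1.5-fold higher, beside 5.31%. Their mean level was 12.14 in CD36KO and 10.29 in WT. One of the 8, Pnliprp2, is also a pancreatic lipase. How far Lyz1 RNA binds the Lyz2 probe set was not tested, so the Lyz2 difference is uncertain as a phagocyte reading. Neutrophil markers, the other source of Lyz2, were below the filter for 10 of 15 genes, and over the other 5 the median was -0.01. Cd177, a neutrophil surface antigen, was the exception among these 5, with 6.57 in CD36KO and 4.51 in WT (4.16-fold higher). Its WT value was just below the filter, so it passed through the CD36KO array alone. The part of neutrophil RNA in the Lyz2 reading was not tested.

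Lgmn encodes legumain, a lysosomal asparaginyl endopeptidase abundant in macrophages and also made by other cells. It read 7.66 in CD36KO and 6.61 in WT, 2.07-fold higher at its single probe set. Other general macrophage genes differed less. Ms4a7, a tetraspanning membrane protein of macrophages, read 7.36 in CD36KO and 6.99 in WT, and its second probe set, below the filter, differed by 0.36 as well. Adgre1, which encodes the macrophage antigen F4/80, read 6.40 in CD36KO and 6.12 in WT, a difference of 0.28.

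Within the same group of genes 3 readings were lower in the CD36KO pool. Laptm5, a lysosomal membrane protein of haematopoietic cells, read 8.83 in CD36KO and 9.04 in WT, a difference of -0.21 that was the lowest of the set above the filter. Its 4 other probe sets all differed the opposite way, by 0.02 to 0.21, so Laptm5 had no settled direction. Itgax, the CD11c integrin chain of dendritic cells and gut macrophages, read 6.26 in CD36KO and 6.38 in WT. Aif1, the calcium-binding protein IBA1 of macrophages, read 5.90 in CD36KO and 5.94 in WT. Each of these differences was under 1.2-fold.

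Genes that control the numbers and identity of these cells were higher in CD36KO by small amounts at the probe sets used. Csf1r, the receptor on which macrophages depend, read 9.46 in CD36KO and 9.28 in WT, a difference of 0.18, and its other probe sets differed by 0.30 and 0.35. Its ligand Csf1 read 6.02 in CD36KO and 5.98 in WT, with other probe sets between -0.40 (below the filter) and 0.31. Flt3, the receptor that supports dendritic cell development, read 5.95 in CD36KO and 5.84 in WT. Zbtb46, a transcription factor of classical dendritic cells, read 4.53 in CD36KO and 4.49 in WT at the filter itself, and its 3 other probe sets were below it with both signs. Over these 4 genes the largest difference at any probe set was the -0.40 of Csf1.

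Of 6 receptors for bacteria, glycans and dying cells, 5 had a difference above 0, beside 47.8% of all genes. Of the 6, 2 were below the filter. Mrc1, the mannose receptor of resident macrophages, read 6.02 in CD36KO and 5.55 in WT, 1.38-fold higher. Cd14, the co-receptor for lipopolysaccharide, read 6.37 in CD36KO and 6.15 in WT. Mertk, a kinase receptor for engulfing apoptotic cells, read 8.77 in CD36KO and 8.88 in WT, one of the 4 lower readings above the filter. The remaining receptors sat at or below the limit of the filter. Cd209a, a C-type lectin of monocyte-derived dendritic cells, read 4.53 in CD36KO and 4.34 in WT. Clec10a, a galactose lectin, read 4.47 in CD36KO and 4.05 in WT, and its close relative Mgl2 read 4.94 in CD36KO and 4.86 in WT. Timd4, a phosphatidylserine receptor of long-lived macrophages, read 3.34 in CD36KO and 3.12 in WT, so a difference could not be told from background for it.

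At the probe sets used, the Fc receptor group was higher in CD36KO by small amounts. Fcgr3, an activating receptor for IgG, read 6.52 in CD36KO and 6.02 in WT, a 1.42-fold higher value that was the nearest below the 1.5-fold limit. Fcgr1, the high-affinity IgG receptor, read 5.24 in CD36KO and 5.003 in WT, and its second probe set differed by -0.10. The signalling adaptors, which carry ITAM motifs, are shared with mast cells and NK cells. Fcer1g read 7.32 in CD36KO and 7.11 in WT, and Tyrobp read 8.38 in CD36KO and 8.14 in WT. All 4 genes of the group were higher in CD36KO at the probe set used, beside 48.8% of all genes above the filter. Their median difference was 0.24, and none was past 1.5-fold. The fixed list of further Fc receptor and ITAM genes had 10 genes above the filter, all within 1.5-fold at the probe set used, with a median of 0.06. Syk, the kinase downstream of these adaptors, had the largest difference at a probe set used (0.46, with other probe sets from -0.17 to 0.34). Fcgr2b, the inhibitory IgG receptor, named after its values were seen, differed by -0.07 at the probe set used, but 4 further ones differed by 0.07 (below the filter) to 0.89, 2 of them past 1.5-fold.

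**Figure D2:**
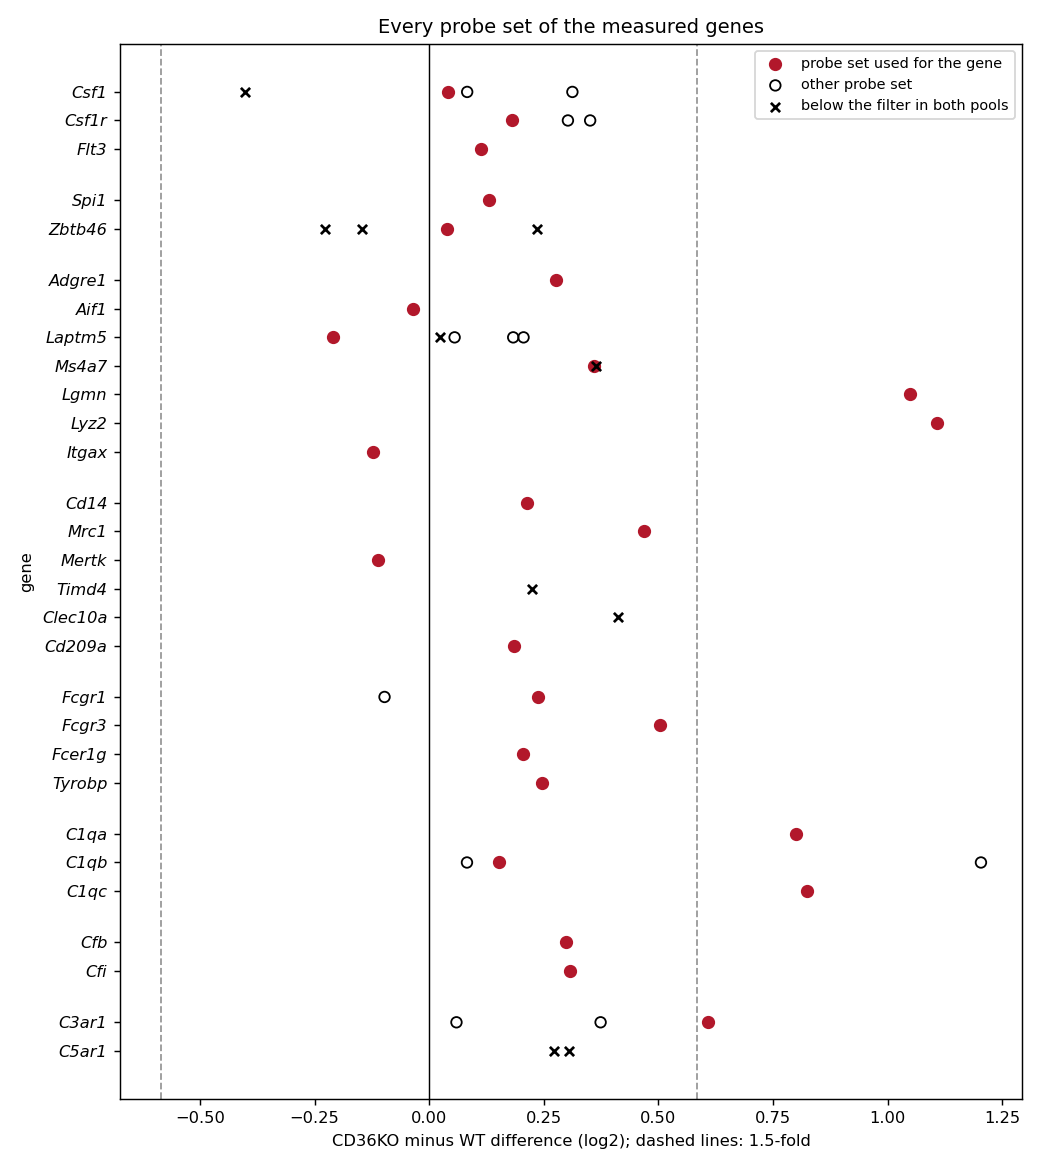
CD36KO minus WT difference (log2, x axis) of all 48 probe sets of the 29 measured genes (y axis), with the probe set used filled red, others as open circles and those below the filter in both pools as crosses, and dashed lines at 1.5-fold. The C1qb probe sets spread from 0.08 to 1.20, and of the 38 probe sets above the filter 33 lie right of 0 and 5 left of it.

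Complement genes of the set other than C1q were measured for the alternative branch and the receptors. Cfb, factor B, read 8.64 in CD36KO and 8.34 in WT, 1.23-fold higher. Cfi, factor I, the protease that inactivates C3b, read 7.01 in CD36KO and 6.70 in WT, 1.24-fold higher. C3ar1, the receptor for the fragment C3a, read 5.14 in CD36KO and 4.53 in WT, which at 1.52-fold was the smallest difference counted. Its other probe sets differed by 0.37 and 0.06, so 1 of its 3 readings passed 1.5-fold. C5ar1, the receptor for the fragment C5a, read 4.21 in CD36KO and 3.90 in WT, below the filter. Above the filter 6 complement genes of the set had a median difference of 0.46, and the other 20 genes had one of 0.20.

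Further genes of the complement system, outside the set, included the proteases that form the C1 complex with C1q. Both were higher: C1s1 read 7.01 in CD36KO and 5.94 in WT (2.10-fold), and C1ra read 6.46 in CD36KO and 5.63 in WT (1.79-fold). C2, the protease of the classical convertase and the gene next to Cfb on chromosome 17, read 7.68 in CD36KO and 6.92 in WT, with other probe sets at 1.13 and 1.17. C8g, a chain of the membrane attack complex, ran the other way, with 5.04 in CD36KO and 5.68 in WT. Of 9 further components past the filter, 4 were higher by at least 1.5-fold and 1 was lower by that much. Their median difference was 0.16, and with the 8 below the filter included it was -0.01 over 17 genes, 8 of them above 0.

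Genes that restrain or sense complement lay mostly above 0. Cd55, the decay-accelerating factor of cell membranes, read 8.67 in CD36KO and 7.67 in WT, 1.99-fold higher, with other probe sets at 1.06 and 0.13. Serping1, the C1 inhibitor, read 8.92 in CD36KO and 8.002 in WT, 1.89-fold higher. C4bp, the C4b-binding protein, was higher by 0.76, and its WT value of 4.19 was below the filter. Itgb2, the shared chain of the leukocyte integrins that include complement receptors, was 1.59-fold higher. All 8 genes of this list above the filter had a difference above 0, 4 of them past 1.5-fold, with a median of 0.57. With the 8 below the filter included, 12 of 16 were above 0 and the median was 0.28. Complement genes such as C1s1, C1ra and Serping1 are made by fibroblasts as well as by phagocytes, and fibroblast markers had a median difference of 0.92, with 7 of 12 genes past 1.5-fold and a mean level of 8.58 in CD36KO and 7.81 in WT. The part of fibroblast RNA in these differences was not tested.

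Other macrophage and dendritic cell genes differed in size too. The further macrophage list had 17 genes past the filter, 4 higher by at least 1.5-fold and 0 lower by it, with a median of 0.22. Cd68, the lysosomal macrophage antigen, was the highest, with 5.18 in CD36KO and 3.46 in WT, where it was below the filter. Pld4, a lysosomal nuclease, was 1.69-fold higher, and Ly86, the partner of a Toll-like receptor homologue, was 1.62-fold higher. Cybb, the catalytic chain of the phagocyte oxidase, was higher by 0.59, only just past the 1.5-fold limit. Its other probe sets differed by 0.57 (below the filter) and by -0.43 (above the filter), so Cybb had no settled direction. Of 13 further dendritic cell genes, 3 passed 1.5-fold with a median of 0.39, while over all 18 measured, 5 of them below the filter, the median was 0.04. The 3 genes past 1.5-fold (Btla, Cd24a and Irf4) are also expressed by lymphocytes or epithelium. The other probe set of Irf4, above the filter, differed by -0.01, and those of Cd24a by 0.19 and 1.88. Among myeloid growth factors Csf2 was 1.69-fold lower, with 5.02 in CD36KO and 5.78 in WT, and the other 8 genes above the filter lay within 1.5-fold.

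**Figure D3:**
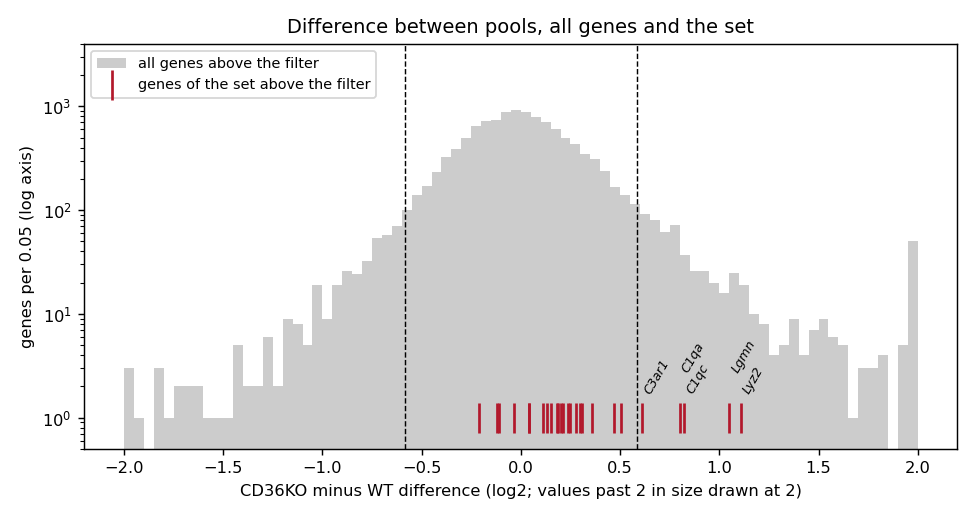
Number of genes (y axis, log scale) by CD36KO minus WT difference (log2, x axis) for the 11981 genes above the filter in grey, with the 26 genes of the set above the filter as red marks and dashed lines at 1.5-fold. The marks run from -0.21 to 1.11, 22 of them above 0, with 5 right of the upper dashed line.

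Differences of this size were also seen in genes that mark other cells of the gut wall. Genes common to all leukocytes had a median difference of 0.29 over 15 genes, 13 of them above 0 and 4 past 1.5-fold, among them Cd53 (1.87-fold) and Cd48 (1.76-fold). Their mean level was 7.18 in CD36KO and 6.83 in WT, while the 26 genes of the set had a mean level of 7.01 in CD36KO and 6.70 in WT. For 12 genes of B and plasma cells the median was 0.37, and 4 were at least 1.5-fold higher. Over the 12 T and NK cell genes it was -0.03, with none past 1.5-fold higher and Klrd1 1.85-fold lower. Blood endothelial markers had a median of 0.27, and the 4 mast cell and eosinophil markers above the filter, of 14 measured, had one of 0.99, while over all 14 the median was 0.20. Adipocyte markers had a median of -0.24.

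Markers of gut segment and control probe sets for RNA state also differed between the pools. All 15 distal small intestine genes were higher in CD36KO, with a median of 1.66, all 13 proximal genes were lower, with a median of -0.94, and all 14 measured pancreas acinar genes were higher, with a median of 1.59. Among the distal genes Fabp6 differed most, with 12.92 in CD36KO and 6.25 in WT. Next was Fgf15, with 7.58 in CD36KO and 3.47 in WT, where it was below the filter. Between its 3' and 5' control probe sets, beta-actin differed by 1.34 in CD36KO and 2.28 in WT, and GAPDH by 0.71 in CD36KO and 1.28 in WT. The part of any difference in segment, neighbouring tissue or RNA state in the differences of macrophage and complement genes was not tested. Without the C1q genes, Lyz2 and Lgmn, the median over the 21 remaining genes past the filter was 0.20. A difference above 0 was read for 17 of these 21 (81%), beside 48.8% of all genes above the filter. Only C3ar1 was past 1.5-fold, a share of 4.76%, beside 5.31%. That share was lowered by the choice itself, because the genes left out hold all others of the set past 1.5-fold.

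**Figure D4:**
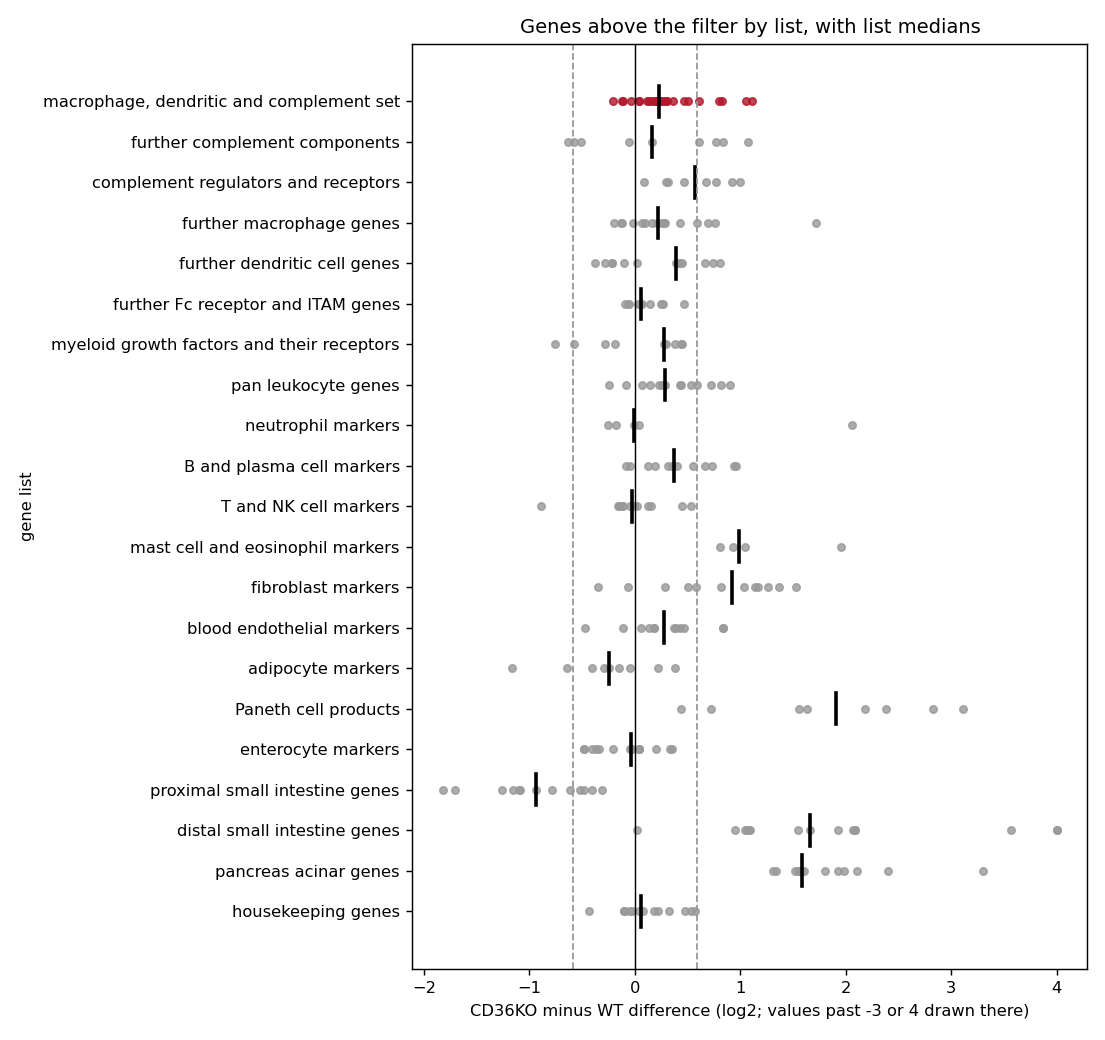
CD36KO minus WT difference (log2, x axis) of each gene above the filter (points) by list (y axis), with the set in red, list medians as black bars, and dashed lines at 1.5-fold. The bar of the set lies at 0.23, that of complement regulators at 0.57, that of fibroblast markers at 0.92 and that of T and NK cell markers at -0.03.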

How the data were processed

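The authors deposited 1 table of 45101 probe sets with a log2 value per array. How they were summarized and normalized is not stated in the sources used here, and the log base was inferred from their range. Medians were 4.38 in CD36KO and 4.38 in WT. The table gives no detection calls, so low values may be background, and precision is limited by having 1 array per genotype. Per the labels' protocols, TRIzol RNA of 3 animals was pooled per genotype. Of the probe sets, 34958 carried 1 symbol in the platform annotation, 932 carried several and 9211 none. The identifiers of 34754 were in the RefSeq table of GRCm38.p6, which changed 0 symbols.

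From these values the CD36KO minus WT difference was computed with no further normalization and no test. Probe set choice, filter and counts followed the rules given above. The code was run on simulated data whose planted shifts were larger than any difference of the set. That run does not show how differences near 1.5-fold are called. All measured genes of the set are named, with Cd36, Lyz1 and Mgl2. Other genes named from a further list, except Fcgr2b, are among its 4 genes above the filter with the largest absolute difference. Not all of these are named, and several lists are given by their counts and medians alone. Genes of the set were left out of the further lists. The members and lists were chosen with earlier results of these data known. Alternatives covered normalization, probe set choice, filter and threshold. The tools were pandas 2.3.3 and NumPy 2.4.6 in Python 3.11.15, with statsmodels 0.14.6 for lowess and matplotlib 3.10.9.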

Additional observations from a re-analysis of the deposited data

How the results depend on the processing

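The median difference of the genes above the filter stayed between 0.20 and 0.30 under the 9 alternatives (median centring, quantile normalization, lowess removal, mean or smallest difference over probe sets, probe sets with suffix s, x or a left out, a filter at the 75th percentile, a filter on the mean, no filter). The count at least 1.5-fold higher was 4 to 6 under these, beside 3.81% to 5.79% of all genes kept. The count lower was 0 under each, beside 2.15% to 3.83%. The number of genes of the set differed between alternatives: 4 of 13 were higher with the 75th percentile filter, 5 of 29 with no filter and 6 of 22 without suffixed probe sets. At a 2-fold threshold 2 genes remained, Lgmn and Lyz2, beside 1.61% of all genes. Of 170 recomputed gene differences, 3 crossed 1.5-fold. Many of the 170 could not move: 20 of the 29 genes had 1 probe set, so another choice of probe sets left their values unchanged. C3ar1 was at 0.35 with the mean over probe sets and 0.06 with the probe set of smallest difference, and C1qb was at 1.20 where suffixed probe sets were left out. Some small differences changed sign with the choice of probe sets. Laptm5 was at 0.05 with the mean, 0.02 with the smallest difference and 0.18 without suffixed probe sets. Fcgr1 was at -0.10 with the smallest difference, and Zbtb46 at -0.02 with the mean. The 3 normalizations moved no gene by more than 0.05. No paired analysis was possible because each genotype had 1 pooled array, which also allowed no array to be left out.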
